A study of Mus musculus with 30 samples.

Results

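Ribosome biogenesis genes encode the nucleolar proteins that transcribe, modify, cut and assemble ribosomal RNA into the small and large ribosomal subunits. The set described here comprises 41 such genes, which were fixed by name and cover polymerase I transcription, small nucleolar ribonucleoproteins (snoRNPs) and the assembly of both subunits. All 41 were found once among the 50833 genes of the count table, all 41 belong to its 20569 protein-coding autosomal genes, and all 41 passed the filter on low counts in every comparison. The rule uses names and no measured value, but the members were chosen with earlier results of these data known. The counts below are therefore not those of a blind choice. Their RNA was followed in forelimb buds of wild-type Swiss Albino mouse embryos after WNT signaling was blocked by C59. C59 (Wnt-C59) targets porcupine, which attaches a lipid to WNT proteins and without which cells do not release them, and was injected intraperitoneally into pregnant females when the embryos had reached E10.5, whereas the controls received the solvent DMSO. Forelimb buds were collected 1, 6, 12, 18 and 24 h later, which gave 10 groups of 3 libraries, with each library made from polyA RNA of the forelimb bud pair of a single embryo. Replicates were different embryos of both sexes and came from several litters. As the mother was injected, the inhibitor was not restricted to the limb bud.

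In the nucleolus, RNA polymerase I transcribes a long precursor that is folded and cut co-transcriptionally by a large particle, the small subunit (SSU) processome. Box C/D snoRNPs methylate the ribose of selected nucleotides and box H/ACA snoRNPs convert selected uridines to pseudouridine. The precursors of the small and of the large subunit then mature separately and are exported to the cytoplasm. Growing and dividing cells spend a large part of their transcription on this pathway, and MYC proteins, which bind the E-box, are known to activate many of its genes.

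The libraries held between 18188636 and 38974885 counted reads, with a median of 21597120. In 4 libraries (DMSO replicate 1 at 1, 6 and 18 h and C59 replicate 2 at 24 h), the annotated gene CT010467.1 took 0.204% to 0.545% of the counts, as compared to 1.95% to 2.91% in the other 26, and none of these 4 belongs to the 12 h groups. Among the C59 libraries at 18 h, replicate 3 differed from the other two, as it was the lowest of the group for 18 of the 41 genes and the highest for 19. The summed FPKM (fragments per kilobase of transcript and sequencing depth, as deposited) of 4 Y-linked genes was 0 in all DMSO libraries and 19.8 to 33.2 in all C59 libraries at 6 h, so that the sex of the embryos and the treatment cannot be told apart at that time. The groups were also separated at 1 h, with 0.0469 to 9.03 FPKM in DMSO and 21.2 to 38.2 FPKM in C59 libraries, and at 24 h 1 DMSO library and no C59 library was below 1 FPKM. At 12 h, 2 of 3 libraries in either group were below 1 FPKM for these genes. The markers of limb mesenchyme were present in all libraries, with Prrx1 at 80.9 to 127 FPKM.

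Axin2, a direct target of canonical WNT signaling, served as a check of the treatment. Its level was 122 to 126 CPM (counts scaled to library size) in DMSO and 105 to 111 CPM in C59 libraries at 1 h. At 6 h the DMSO libraries held 104 to 118 CPM and the C59 libraries 26.5 to 29.2 CPM. At 12 h they held 110 to 112 and 38.6 to 43.7 CPM. The groups were thus separated at all 3 times, and Axin2 fell by 0.19, 1.97 and 1.45 on the log2 scale (adjusted p = 0.028, 7.6e-11 and 1.4e-07, edgeR quasi-likelihood test). The differences at 18 h (-0.16 ± 0.09, log2 ± SE) and 24 h (-0.08 ± 0.07) did not pass the test. At 18 h the groups still did not overlap, with 109 to 111 CPM in DMSO and 89.1 to 105 CPM in C59 libraries. At 24 h they overlapped, with 107 to 118 and 99.2 to 114 CPM. Throughout, a gene is said to have passed when its Benjamini-Hochberg adjusted p over all genes tested was below 0.05, and to have met the criterion of the study when its log2 fold change was in addition beyond 1.

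The 41 genes differed widely in level. Nucleophosmin (Npm1), an abundant nucleolar chaperone, was first with a mean of 815 FPKM over the 30 libraries, followed by the box C/D methyltransferase fibrillarin (Fbl) with 134 FPKM and by nucleolin (Ncl), an RNA-binding protein of the nucleolus, with 123 FPKM. The median gene had 27.6 FPKM, 15 genes were below 20 FPKM, and the SSU processome protein Utp20 was last with 8.07 FPKM. Genes of the highest mean level within their role were Mybbp1a for polymerase I transcription (65.9 FPKM), Nhp2 for box H/ACA snoRNPs (61.1 FPKM), Wdr43 for the SSU processome (27.6 FPKM), Pno1 for late maturation of the small subunit (32.1 FPKM) and Pes1 for assembly of the large subunit (37.1 FPKM). The genes lie on 17 chromosomes, with no more than 6 on any of them. Npm1 is known to have processed copies elsewhere in the genome, and whether these share its reads was not tested.

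The sequence before the start of these genes was searched for the letters CACGTG, which read the same on both strands and form the E-box that MYC and other factors are known to bind. RefSeq windows (GRCm38.p6) from 250 bases before to 50 bases after the start were at hand for 35 of the 41 genes. The letters occurred in the windows of 7 genes (Imp4, Nop2, Utp20, Pes1, Pno1, Mybbp1a and Wdr43), as compared to 8.91% of all 17492 protein-coding genes with a window. Only Nop2 and Imp4 carry them before the start. The 250 bases upstream of both genes are shown with the E-box in capitals, because Nop2 was among the genes that changed most after C59 treatment and Imp4 was the gene with the smallest change at 12 h. Gnl3, which showed the largest fall, is shown beside them. Its upstream sequence does not hold these letters. Nop2 lies at chr6:125131633-125131882 on the plus strand, Imp4 at chr1:34439579-34439828 on the plus strand and Gnl3 at chr14:31019132-31019381 on the minus strand, each being the stretch that ends next to the first transcribed base.
Nop2: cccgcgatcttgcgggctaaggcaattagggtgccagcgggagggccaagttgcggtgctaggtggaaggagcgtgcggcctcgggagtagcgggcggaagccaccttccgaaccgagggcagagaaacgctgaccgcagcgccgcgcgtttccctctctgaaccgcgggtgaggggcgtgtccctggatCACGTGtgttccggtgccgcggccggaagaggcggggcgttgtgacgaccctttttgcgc
Imp4: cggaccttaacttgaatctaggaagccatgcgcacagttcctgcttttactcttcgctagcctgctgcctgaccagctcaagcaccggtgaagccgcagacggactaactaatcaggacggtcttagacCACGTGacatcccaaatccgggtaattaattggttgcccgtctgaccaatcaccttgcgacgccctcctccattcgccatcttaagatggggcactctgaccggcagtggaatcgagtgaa
Gnl3: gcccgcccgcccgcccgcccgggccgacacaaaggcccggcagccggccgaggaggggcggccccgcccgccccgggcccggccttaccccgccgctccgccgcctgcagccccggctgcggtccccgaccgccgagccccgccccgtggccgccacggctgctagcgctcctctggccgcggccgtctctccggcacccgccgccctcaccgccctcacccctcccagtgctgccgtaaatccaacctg

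In control limb buds, ribosome biogenesis genes declined as development proceeded. Between 1 and 24 h after DMSO injection, 40 of the 41 genes fell and none rose, whereas 29.2% of all 13580 genes tested fell. For 40 genes, all DMSO libraries at 24 h were below all DMSO libraries at 1 h, which held for 31.9% of all genes. The median log2 fold change of the set was -0.41 and that of all genes was -0.0018. Polr1a, the catalytic subunit of polymerase I, was the exception with -0.09 ± 0.05 (adjusted p = 0.14). The largest falls were those of Gnl3, Nhp2 and Gar1. Gnl3 (nucleostemin), a GTP-binding nucleolar protein required for maturation of the large subunit, had 110 to 123 CPM at 1 h and 70.9 to 76.8 CPM at 24 h, and fell by 0.63 on the log2 scale (adjusted p = 1.9e-07, edgeR). Nhp2, a core protein of box H/ACA snoRNPs, went from 106 to 122 CPM at 1 h to 65.4 to 83.0 CPM at 24 h and fell by 0.62 (adjusted p = 5.7e-06, edgeR). Gar1, another core protein of the same particle, had 91.0 to 108 CPM at 1 h and 64.4 to 65.0 CPM at 24 h and fell by 0.59 (adjusted p = 8.9e-07, edgeR). The early and late libraries were therefore fully separated for each of these genes, but no member reached a log2 fold change of 1. In 21 of the 41 genes, the mean CPM decreased at each of the 4 steps from 1 to 24 h. The decline was not particular to the set. Between 1 and 24 h, 32 of 33 DNA replication genes fell (median log2 fold change -0.44), as did 18 of 20 mitosis genes (-0.43). Of 118 other ribosome biogenesis genes 97 fell (-0.30), and of 75 cytosolic ribosomal proteins 46 fell and 1 rose (-0.15). Over the same interval, all 6 chondrogenic markers rose (median log2 fold change 1.41). Of 6 muscle progenitor markers, 4 rose and 2 fell, with a median of 2.23 and a range from -2.46 to 4.25. Among macrophage markers 4 of 5 rose, and among 8 limb mesenchyme markers 6 fell and 1 rose (median -0.32). The part of these markers in the decline was not tested. As whole limb buds were sequenced, fewer cells with high levels and less RNA per cell cannot be told apart in these data.

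**Figure D1:**
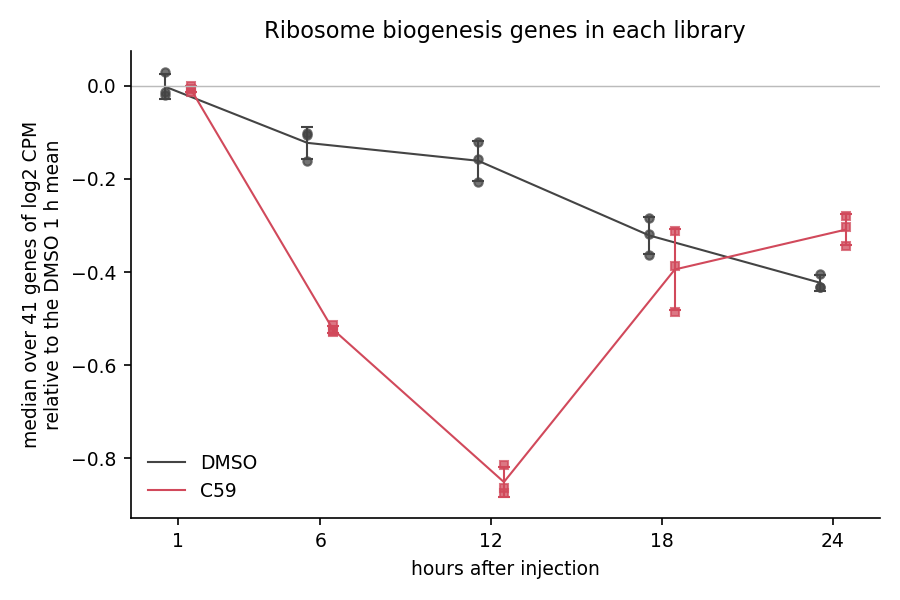
Each point is a library and shows the median over the 41 genes of the log2 CPM relative to the mean of the 3 DMSO libraries at 1 h (vertical axis, log2 units) against hours after injection (horizontal axis), with circles for DMSO, squares for C59, lines through the group means and bars of 1 SD. The DMSO group means decline from 0 to -0.42, whereas the C59 group means drop to -0.52 at 6 h and -0.85 at 12 h and are at -0.39 and -0.31 at 18 and 24 h.

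At 1 h, none of the 41 genes passed the test in either direction, whereas 1.61% of all 13076 genes tested were lower and 1.14% were higher, and DESeq2 called none either. Without adjustment, 4 of the 41 members had p below 0.05 (edgeR), as did 2220 of all 13076 genes. Fold changes ranged from -0.16 for Gnl3 (adjusted p = 0.11) to 0.13 for Nop10. The summed level of the set was 8379 to 8880 CPM in DMSO and 8269 to 8428 CPM in C59 libraries, and these ranges overlap.

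By 6 h, most of the pathway was reduced. Of the 41 genes, 36 fell and none rose, as compared to 11.4% and 8.20% of all 13100 genes tested. For 38 genes, all C59 libraries were below all DMSO libraries, which was the case for 19.3% of all genes. The summed level of the set was 7608 to 8016 CPM in DMSO libraries and 5980 to 5996 CPM in C59 libraries, and the median log2 fold change was -0.43 (all genes 0.01). Without DMSO replicate 1, one of the libraries with few CT010467.1 reads, 36 genes fell as well.

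The largest falls at 6 h were found for Gnl3, Nop2 and Ddx21. Gnl3 had 109, 98.5 and 101 CPM in the DMSO libraries and 55.4, 60.4 and 57.5 CPM in the C59 libraries. Nop2, which methylates the RNA of the large subunit, had 105, 107 and 104 CPM in DMSO and 64.6, 65.6 and 65.3 CPM in C59 libraries. Ddx21, an RNA helicase that associates with polymerase I and box C/D snoRNPs, had 257, 284 and 258 CPM in DMSO and 162, 166 and 168 CPM in C59 libraries. In all 3 genes the C59 libraries lay close together and well below the lowest control. They fell by 0.84, 0.70 and 0.69 on the log2 scale (adjusted p = 4.5e-07, 3.5e-07 and 6.1e-07, edgeR), and no member met the criterion of the study at this time.

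The fall at 6 h spanned all roles. All 11 genes for assembly of the large subunit passed (median log2 fold change -0.51), as did all 4 genes for late maturation of the small subunit (-0.40), all 3 abundant nucleolar proteins (-0.36) and all 3 box C/D genes (-0.51). In the polymerase I group, 4 of 5 genes passed (-0.39), among box H/ACA genes 3 of 4 (-0.51), and in the SSU processome 8 of 11 (-0.35). The 5 genes that did not pass were Nop10 (0.04 ± 0.07), Polr1a (-0.10 ± 0.06), Utp20 (-0.17 ± 0.09), Noc4l (-0.15 ± 0.06) and Imp4 (-0.13 ± 0.05), given as log2 fold change ± SE. Beside Nop10, a small core protein of the H/ACA particle, the same role holds the core proteins Nhp2 and Gar1 and the chaperone Nolc1, which fell by 0.52, 0.50 and 0.59.

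**Figure D2:**
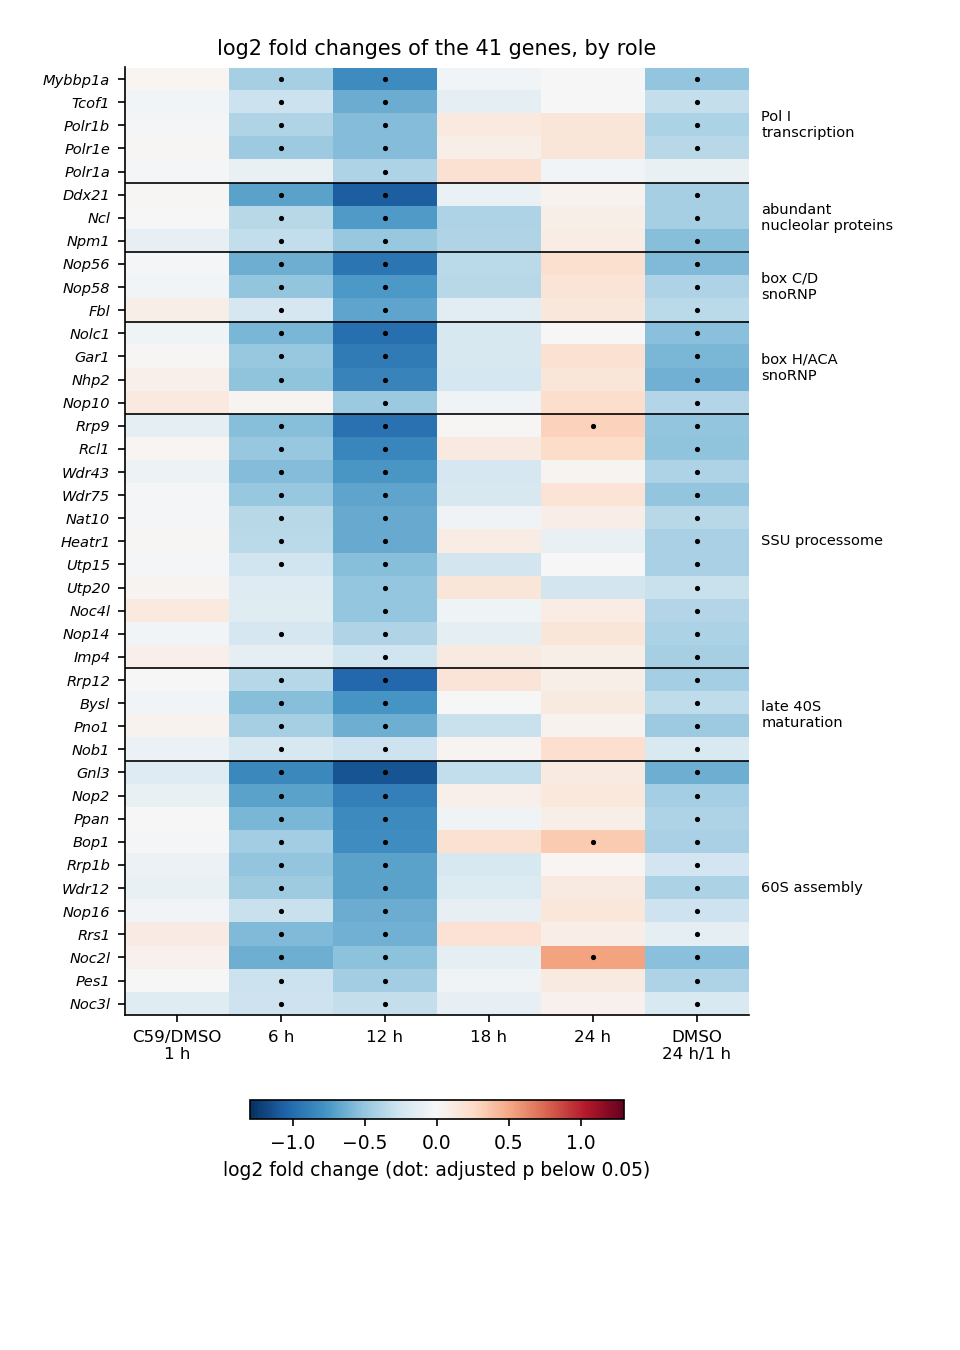
Each row is a gene, grouped by role, and each column a comparison, with the color giving the log2 fold change (C59 against DMSO at 5 times, and DMSO 24 h against 1 h) and a dot marking an adjusted p below 0.05. Dots mark 36 genes at 6 h, 41 at 12 h, none at 1 and 18 h, 3 at 24 h and 40 in the last column.

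At 12 h, the entire set was reduced. All 41 genes fell, as compared to 25.5% of all 13324 genes tested, while 22.0% of all genes and none of the set rose. The C59 libraries were below the DMSO libraries without overlap for all 41 genes, which held for 30% of all genes. The summed level was 7222 to 7667 CPM in DMSO libraries and 4565 to 4799 CPM in C59 libraries, and the median log2 fold change was -0.68 (all genes 0.02), with a range from -1.12 for Gnl3 to -0.26 for Imp4. The highest adjusted p among the 41 was 0.0051 (Nob1, a nuclease for the small subunit, edgeR). All 41 genes also passed in each of the 10 alternative analyses with the same threshold and without each of the 6 libraries in turn.

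Gnl3, Ddx21 and Rrp12 fell beyond a log2 fold change of 1, and only 1.43% of all genes did so at 12 h. Gnl3 had 92.6, 91.2 and 98.3 CPM in DMSO and 40.7, 43.3 and 45.5 CPM in C59 libraries, a fall by 1.12 ± 0.06 on the log2 scale (adjusted p = 5.6e-07, edgeR). Ddx21 had 260, 264 and 281 CPM in DMSO and 121, 125 and 136 CPM in C59 libraries and fell by 1.07 ± 0.05 (adjusted p = 4.9e-07, edgeR). Rrp12, which takes part in maturation and export of the small subunit, had 62.4, 63.8 and 64.8 CPM in DMSO and 28.4, 34.2 and 31.1 CPM in C59 libraries and fell by 1.02 ± 0.07 (adjusted p = 2.2e-06, edgeR). In all 3 genes the highest C59 library was below the lowest control library.

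The most abundant gene of each role also fell. Npm1 had 1675, 1637 and 1763 CPM in DMSO and 1167, 1191 and 1238 CPM in C59 libraries at 12 h and fell by 0.50 ± 0.04. Fbl had 232, 218 and 249 CPM in DMSO and 146, 140 and 151 CPM in C59 libraries and fell by 0.68 ± 0.06. Mybbp1a, a nucleolar protein that binds MYB and takes part in ribosomal RNA synthesis, had 423, 424 and 446 CPM in DMSO and 238, 245 and 250 CPM in C59 libraries and fell by 0.82 ± 0.04. Separation of the groups was again complete. Across the 41 genes, the log2 fold change at 12 h and the log2 mean FPKM had a Pearson correlation of -0.20 and a Spearman correlation of -0.30, given as a description, since all genes were measured in the same libraries.

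**Figure D3:**
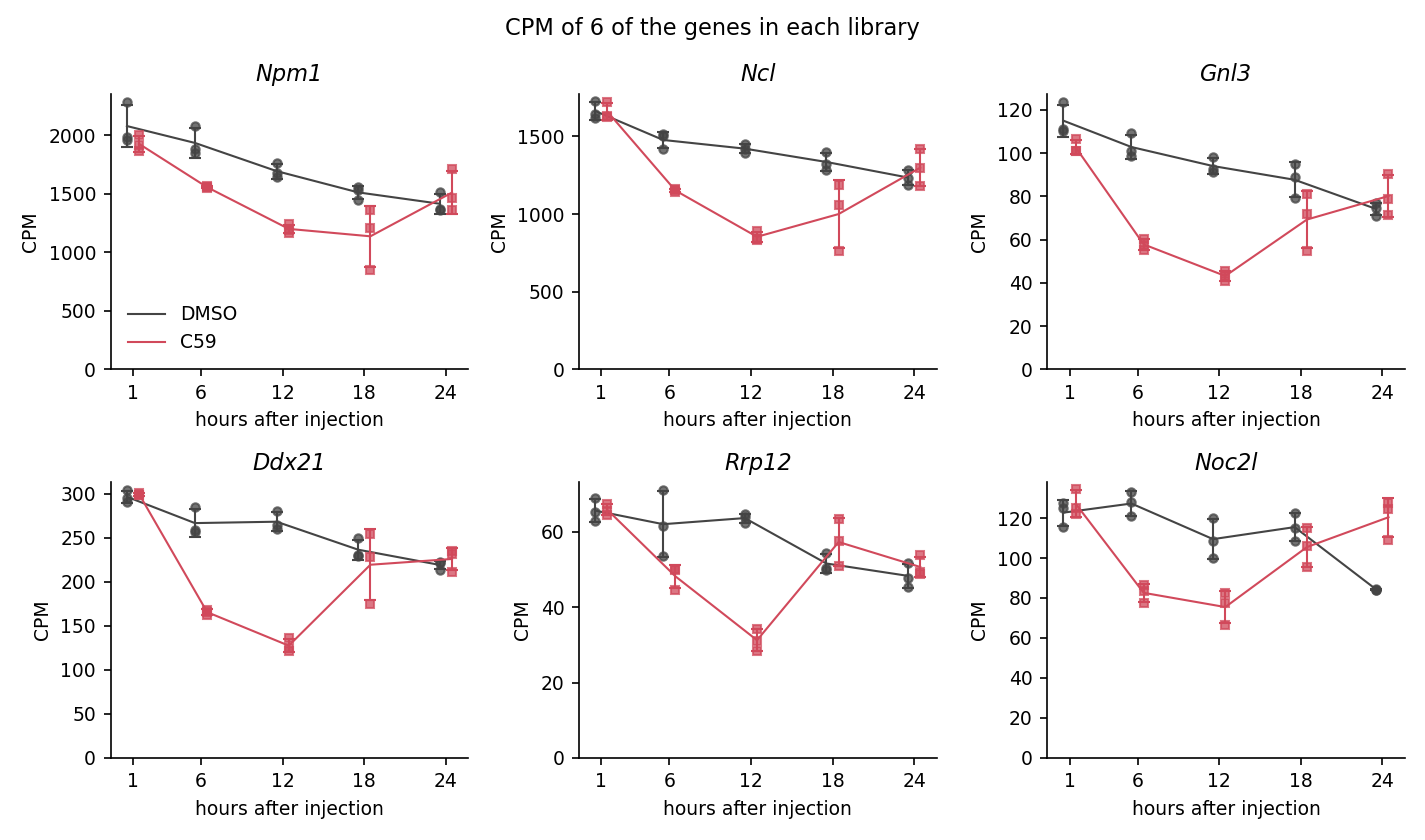
CPM of 6 genes (vertical axes, linear, starting at 0) in each of the 30 libraries against hours after injection, with circles for DMSO, squares for C59, lines through group means and bars of 1 SD. In all 6 genes the C59 libraries are below the DMSO libraries at 6 and 12 h, and for Npm1, Ncl, Gnl3 and Ddx21 the C59 libraries are spread more widely at 18 h than at 12 h.

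The remaining genes that lead their role were also reduced at 12 h. Nhp2 had 89.0, 88.2 and 91.1 CPM in DMSO and 51.0, 45.8 and 50.7 CPM in C59 libraries and fell by 0.86 ± 0.06 on the log2 scale. Wdr43, a protein of the SSU processome, had 141, 134 and 143 CPM in DMSO and 81.8, 80.7 and 85.1 CPM in C59 libraries and fell by 0.76 ± 0.05. Pno1, which acts on the precursor of the small subunit together with Nob1, had 72.9, 67.7 and 72.3 CPM in DMSO and 42.3, 46.0 and 48.3 CPM in C59 libraries and fell by 0.64 ± 0.06. These genes stand for particles that act at different steps, from modification to final cleavage. Pes1, which forms a complex with Bop1 and Wdr12 that is required for processing of large subunit RNA, had 124, 120 and 123 CPM in DMSO and 90.4, 89.4 and 88.2 CPM in C59 libraries and fell by 0.46 ± 0.04. Its partners Bop1 and Wdr12 fell by 0.81 and 0.69.

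By role, the median log2 fold change at 12 h was -0.89 for box H/ACA genes, -0.74 for box C/D genes, -0.74 for abundant nucleolar proteins, -0.70 for late maturation of the small subunit, -0.69 for large subunit assembly, -0.66 for the SSU processome and -0.57 for polymerase I transcription. The ranges of these roles overlap, as every role with more than 3 genes held members with a change both above and below the median of the set. Nop10, which had not passed at 6 h, had 47.0, 36.5 and 50.2 CPM in DMSO and 29.0, 32.5 and 33.8 CPM in C59 libraries at 12 h and fell by 0.49 ± 0.11 (adjusted p = 0.0048, edgeR).

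Every other member can be placed by its log2 fold change at 12 h. Ncl, an abundant nucleolar protein, had -0.74. Of the polymerase I genes, the largest subunits Polr1a and Polr1b had -0.40 and -0.57, the subunit Polr1e -0.56, and Tcof1 (treacle), which links polymerase I transcription to RNA modification, -0.64. The box C/D core proteins Nop56 and Nop58 had -0.95 and -0.74, and Nolc1 -0.98 and Gar1 -0.92 were the box H/ACA genes with the largest falls. In the SSU processome, Rrp9 (-0.97) fell most, and Nat10, an RNA acetyltransferase, had -0.66, Heatr1 -0.66, Wdr75 -0.68, Utp15 -0.56, Rcl1 -0.84, Nop14 -0.39, Utp20 -0.50 and Noc4l -0.50. For late maturation of the small subunit, Bysl (bystin) had -0.77 and Nob1 -0.27. In large subunit assembly, Nop2 had -0.88, Ppan -0.83, Nop16 -0.64, Rrs1 -0.63, Rrp1b -0.70, Noc3l -0.31 and Noc2l -0.53. The smallest falls were those of Imp4 and Nob1, genes for the small subunit, followed by that of Noc3l, a gene for the large subunit.

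The fold changes at 6 and 12 h, which rest on different libraries, had a Pearson correlation of 0.76 and a Spearman correlation of 0.77 across the 41 genes. The difference between both times was tested with an interaction term over the 12 libraries. The effect of C59 grew for 26 of the 41 genes and shrank for none, as compared to growth in the downward direction for 11.5% of all 13565 genes. The median change of the log2 fold change was -0.30. Rrp12 (-0.66 ± 0.12), Nop10 (-0.52 ± 0.14) and Fbl (-0.46 ± 0.07) changed most (adjusted p = 0.0017, 0.018 and 0.00039, edgeR). Noc2l, a nucleolar protein of large subunit assembly, had already dropped by 0.63 at 6 h and by 0.53 at 12 h, and the difference of 0.09 ± 0.11 did not pass. The count was 16 without DMSO replicate 3 at 6 h, without DMSO replicate 1 at 12 h or without C59 replicate 1 at 12 h, 17 without C59 replicate 3 at 6 h, and 18 to 24 without any other of the 12 libraries.

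The reduction at 12 h went below the level that control limb buds reached later. For 40 of the 41 genes, all C59 libraries at 12 h were below all DMSO libraries at 24 h, which was the case for 30.3% of all genes, and the median log2 ratio of the group means was -0.46. Imp4, an SSU processome protein, overlapped with 70.8, 68.6 and 68.1 CPM in C59 libraries at 12 h and 68.9, 69.6 and 66.0 CPM in DMSO libraries at 24 h. Across the 41 genes, the log2 fold changes of C59 at 12 h and of DMSO between 1 and 24 h, which share no library, had a Pearson correlation of 0.56 and a Spearman correlation of 0.54.

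At 18 h, none of the 41 genes passed the test, as compared to 3.62% of all 13413 genes that were lower and 3.46% that were higher. DESeq2 also called none. Without adjustment, 4 of the 41 members had p below 0.05 (edgeR), as did 3216 of all 13413 genes. The median log2 fold change was -0.09 and the range was -0.40 to 0.20. The SE was larger than at 12 h, with medians of 0.11 and 0.06. Ncl had 1283, 1322 and 1401 CPM in DMSO and 1184, 1055 and 760 CPM in C59 libraries (-0.40 ± 0.15, adjusted p = 0.14, edgeR). Npm1 had 1559, 1445 and 1528 CPM in DMSO and 1356, 1203 and 847 CPM in C59 libraries (-0.39 ± 0.15, adjusted p = 0.16, edgeR). Replicate 3 gave the lowest value of both genes. It was, in contrast, the highest for others, such as Bop1, with 98.8, 86.5 and 94.2 CPM in DMSO and 99.8, 92.5 and 124 CPM in C59 libraries. Without replicate 3, 5 genes fell, namely Nhp2 (-0.39), Fbl (-0.33), Gar1 (-0.26), Ncl (-0.24) and Npm1 (-0.22), but 9.20% of all genes were then lower too. When all 30 libraries shared the estimate of the spread, 14 genes were called lower and 1 higher, as compared to 16.5% and 11.0% of all genes in that fit.

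The change from 12 to 18 h was itself tested. The fold change moved upward for 28 of the 41 genes and downward for none, as compared to an upward change in 4.94% of all 13694 genes, and the median change was 0.60. Rrp12, with 49.8, 50.5 and 54.5 CPM in DMSO and 57.7, 50.8 and 63.4 CPM in C59 libraries at 18 h, changed by 1.20 ± 0.13 (adjusted p = 0.00014, edgeR). Bop1 changed by 1.01 ± 0.14 and Rrp9, an SSU processome protein that binds U3 snoRNA, by 1.00 ± 0.17 (adjusted p = 0.00080 and 0.0027, edgeR). All 5 polymerase I genes and 9 of 11 large subunit genes were among the 28. Of the abundant nucleolar and box C/D genes, Ddx21 and Nop56 passed, whereas Ncl (0.34 ± 0.16), Npm1 (0.11 ± 0.17), Fbl (0.54 ± 0.16) and Nop58 (0.38 ± 0.19) did not. Without C59 replicate 3 at 18 h, 37 genes passed, as compared to 8.99% of all genes that were then higher.

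At 24 h, few of the genes passed the test. Of the 41 genes, 3 rose and none fell, as compared to 2.88% and 3.56% of all 13675 genes tested. The median log2 fold change was 0.11 (all genes 0.0037), and it was above 0 for 36 of the 41 genes and for 6961 of all genes. The median log2 CPM of the set relative to DMSO at 1 h was -0.43 to -0.40 in DMSO and -0.34 to -0.28 in C59 libraries. The summed level was 6119 to 6437 CPM in DMSO and 6357 to 7064 CPM in C59 libraries. Noc2l had 84.1, 84.5 and 84.1 CPM in DMSO and 125, 127 and 109 CPM in C59 libraries, a rise by 0.52 ± 0.07 on the log2 scale (adjusted p = 0.00098, edgeR). Bop1 had 82.4, 86.4 and 89.9 CPM in DMSO and 120, 107 and 97.0 CPM in C59 libraries and rose by 0.34 ± 0.08 (adjusted p = 0.028, edgeR). Rrp9 had 44.7, 44.9 and 46.0 CPM in DMSO and 61.8, 52.8 and 51.2 CPM in C59 libraries and rose by 0.30 ± 0.08 (adjusted p = 0.049, edgeR). The groups were separated in all 3 genes. Noc2l was the only member that also passed without C59 replicate 2, one of the libraries with few CT010467.1 reads, and the count was also 1 without any one of the DMSO libraries, 6 without C59 replicate 1 and 5 without C59 replicate 3. Other genes had values above 0 that did not pass, such as Nop2 (0.14 ± 0.07) and Gar1 (0.20 ± 0.06, adjusted p = 0.065, edgeR).

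From 18 to 24 h, the fold change moved upward for 2 of the 41 genes, Noc2l (0.62 ± 0.12) and Gar1 (0.40 ± 0.10), as compared to 3.53% of all 13794 genes, and downward for none. The count was 1 without C59 replicate 2 or DMSO replicate 3 at 18 h, C59 replicate 2 at 24 h or any DMSO library at 24 h, 6 without C59 replicate 1 at 18 h and 7 without C59 replicate 3 at 18 h, while 3.76% and 7.40% of all genes were then higher. Gar1 had 70.6, 72.7 and 76.2 CPM in DMSO and 60.9, 60.1 and 66.8 CPM in C59 libraries at 18 h. At 24 h it had 64.7, 65.0 and 64.4 CPM in DMSO and 73.7, 76.2 and 72.6 CPM in C59 libraries. The C59 libraries of Gar1 were thus all below the controls at 18 h and all above them at 24 h.

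Genes of the wider pathway also fell at 6 and 12 h, with medians closer to 0. A list of 125 other ribosome biogenesis genes was examined, of which 118 were tested. At 6 h, 82 fell and none rose (median -0.25), and at 12 h 96 fell and 1 rose (median -0.41). At 18 h 1 fell, and at 24 h 1 rose. The largest fall at 12 h was that of Mrto4 (-0.89 ± 0.10), a protein of the large subunit precursor, and the gene that rose was Nop53 (0.31 ± 0.04). The cytosolic ribosomal proteins are the structural components that these factors assemble. Of 75 tested, 8 fell and 2 rose at 6 h and 20 fell and 4 rose at 12 h, with medians of -0.05 and -0.06. These counts are near the shares of all genes that fell (11.4% and 25.5%). Rps2 had the largest fall at 12 h (-0.61 ± 0.08), and it had fallen by 1.05 at 1 h, when none of the 41 genes passed. The level of Rps2 also varied widely between control libraries. It was 713, 912 and 583 CPM in DMSO at 6 h and 892, 418 and 880 CPM in DMSO at 24 h. The largest rise at 12 h was that of Rpl17 (0.34 ± 0.04).

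Genes of the cell cycle were examined for comparison. Among 33 DNA replication genes, 5 fell at 6 h and 31 at 12 h, with medians of -0.08 and -0.56, and 13 fell at 18 h. The shares of all genes that fell were 11.4%, 25.5% and 3.62% at 6, 12 and 18 h, and 8.20% rose at 6 h. Cdc6, which loads the replicative helicase, fell by 1.24 at 12 h. Among 20 mitosis genes, 5 rose and none fell at 6 h, 16 fell at 12 h and 18 fell at 18 h, with medians of 0.04, -0.40 and -0.87. Ccna2 (cyclin A2) fell by 0.66 at 12 h and by 0.88 at 18 h. By median, ribosome biogenesis and DNA replication genes were lowest at 12 h and mitosis genes at 18 h. The effect on mitosis genes moved further down from 12 to 18 h for 11 of 20 genes and up for none (3.55% of all genes moved down), in contrast to the upward change of 28 of the 41 ribosome biogenesis genes over the same interval.

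**Figure D4:**
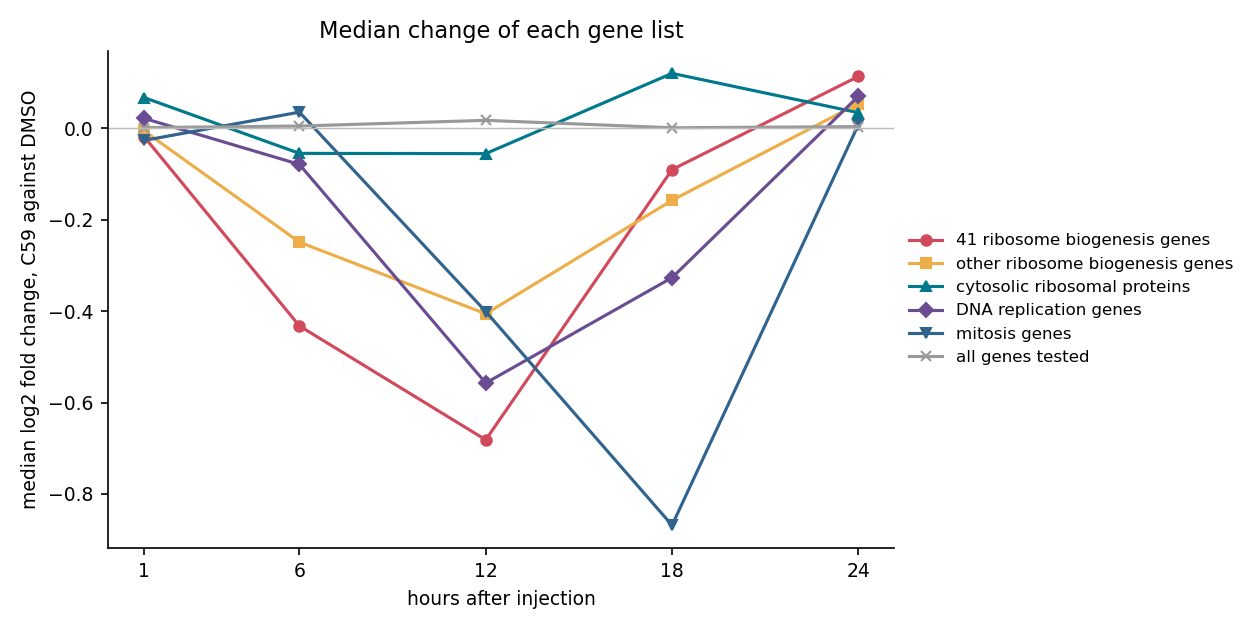
Median log2 fold change of C59 against DMSO (vertical axis) for each gene list against hours after injection (horizontal axis), with no error bars because genes are not replicates. The 41 ribosome biogenesis genes are lowest at 12 h (-0.68), mitosis genes at 18 h (-0.87), and cytosolic ribosomal proteins remain between -0.06 and 0.12.

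The MYC family was examined as a known regulator of the pathway. Of 10 MYC factors tested, 3 fell and 1 rose at 6 h (median log2 fold change -0.02), and 2 fell and 3 rose at 12 h (-0.08). Of all genes tested, 11.4% fell and 8.20% rose at 6 h, and 25.5% fell and 22.0% rose at 12 h. The counts at 12 h are near these shares. Mycn had 138 to 150 CPM in DMSO and 47.4 to 53.9 CPM in C59 libraries at 6 h and fell by 1.49 ± 0.06 on the log2 scale (adjusted p = 1.2e-09, edgeR). At 12 h it had 119 to 143 and 49.9 to 59.5 CPM and fell by 1.25 ± 0.08 (adjusted p = 1.5e-06, edgeR). The groups were far apart at both times. At 18 h Mycn had risen above the controls, with 103 to 107 CPM in DMSO and 126 to 139 CPM in C59 libraries (0.35 ± 0.08, adjusted p = 0.042, edgeR), and in control limb buds it fell by 0.86 between 1 and 24 h. Myc had 34.3 to 38.5 CPM in DMSO and 24.1 to 27.0 CPM in C59 libraries at 6 h and fell by 0.52 ± 0.07 (adjusted p = 0.00024, edgeR). It fell by 0.61 at 12 h and by 0.44 at 18 h and rose by 0.35 in controls between 1 and 24 h. Mxd4, a MYC antagonist, rose by 0.71 ± 0.06 at 12 h. Whether any of these factors acts on the 41 genes was not tested.

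Markers of other cell types changed as well. Beside them, 22.0% of all genes rose and 25.5% fell at 12 h, while 3.46% rose at 18 h and 2.88% at 24 h. At 12 h, 5 of 6 chondrogenic markers rose, with a summed level of 134 to 142 FPKM in DMSO and 269 to 382 FPKM in C59 libraries. Of 8 limb mesenchyme markers, 5 fell and 1 rose, with 583 to 615 FPKM in DMSO and 408 to 433 FPKM in C59 libraries. Ectoderm markers rose for 6 of 8 genes and fell for 1 (108 to 119 and 145 to 196 FPKM). All 5 macrophage markers rose, from 7.78 to 8.71 FPKM in DMSO to 14.4 to 15.6 FPKM in C59 libraries, and so did 3 of 5 endothelial markers (53.9 to 60.5 and 70.4 to 81.9 FPKM). Of 6 muscle progenitor markers, 2 rose and 3 fell, and of the erythroid markers 1 of 5 tested rose. Hba-a2 was listed at 0 in 18 libraries, and of the chondrogenic markers Matn1 was listed at 0 in 3. At 6 h, limb mesenchyme markers were 604 to 637 FPKM in DMSO and 399 to 417 FPKM in C59 libraries, chondrogenic markers 113 to 119 and 145 to 169 FPKM, ectoderm markers 109 to 128 and 107 to 108 FPKM, and no macrophage marker passed. At 18 h, when none of the 41 genes passed, 4 of 8 ectoderm, 3 of 6 chondrogenic and 3 of 5 macrophage markers were higher in C59 libraries, and at 24 h 3, 2 and 2 of them. One of the ectoderm markers was lower at 18 h. The part of these markers in the fall of ribosome biogenesis genes was not tested.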

How the data were processed

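The authors trimmed reads with Cutadapt 1.16, aligned them to mm10 with STAR 2.7.0e and deposited the gene read counts that STAR gave, without normalization. The strand setting of the counting is not given in the sources used here. FPKM values were made by the authors with Cufflinks 2.2.1 (multi-read correction, unstranded). Here, R 4.3.3 was used, and the quasi-likelihood test of edgeR 4.0.16 was applied to the counts of protein-coding autosomal genes (TMM factors, minimum count of 10 and total of 15, Benjamini-Hochberg adjustment over all genes tested). Each time was fitted on its 6 libraries, and a change between times by an interaction term on 12 libraries. Neighboring changes share libraries, as do the DMSO comparison over time and the C59 comparisons at 1 and 24 h. CPM uses TMM-scaled library sizes. DESeq2 1.42.0, limma 3.58.1 on log2(FPKM + 1) and log2(FPKM + 0.1), other scalings and filters, a replicate block and the omission of each library were alternatives.

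The members and lists were chosen with earlier results of these data known. Genes given in every library were the 3 largest rises and falls per comparison among members that passed without overlap between groups, the member with the highest mean FPKM per role and members beyond a log2 fold change of 1. Ncl, Nop10, Imp4 and Bop1 (18 h) were added after their values were seen. In other lists, genes with the largest rise and fall at 12 h are named, beside Axin2, Myc and Mycn. In simulated data of the 12 h comparison (12528 genes), 99% of genes changed by 1 on the log2 scale and 86% of those changed by 0.5 were recovered, and for the change from 6 to 12 h (12431 genes) 93% and 63%. Only 100 genes were changed by each amount, and the same spread was set for all genes, so these rates hold for that setting only. The 18 h comparison, with its larger spread, was not simulated. P-values measure the spread between 3 embryos per group, and counting error alone is small at these depths.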

Additional observations from a re-analysis of the deposited data

Results flagged for a closer look

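The effect of C59 on members of the set differed between neighboring times by an interaction test. From 6 to 12 h it differed for 26 of 41 genes, with Rrp12 (-0.66), Nop10 (-0.52) and Fbl (-0.46) changing most on the log2 scale. From 12 to 18 h it differed for 28 genes, led by Rrp12 (1.20), Bop1 (1.01) and Rrp9 (1.00). From 18 to 24 h it differed for 2 genes, Noc2l (0.62) and Gar1 (0.40), which is near the 3.53% of all genes that moved upward, and 1 of the 2 passed in every alternative. The cause of these differences was not tested.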

How the results depend on the processing

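All 41 genes passed at 12 h under all 10 alternatives with the same threshold, as did 29 of the 36 at 6 h, 35 of the 40 in DMSO, 11 of 26 from 6 to 12 h, 21 of 28 from 12 to 18 h, and 1 gene each at 24 h and from 18 to 24 h. No named gene reversed its direction where it passed in the main fit or in the alternative. Values that passed in neither were not compared for direction. With a log2 fold change beyond 1 required, the counts were 0 at 6 h, 3 at 12 h, 0 at 24 h, 0 in DMSO, 0 from 6 to 12 h, 2 from 12 to 18 h and 0 from 18 to 24 h. With limma on log2(FPKM + 1), medians were -0.039 at 1 h, -0.40 at 6 h, -0.56 at 12 h, -0.32 in DMSO, -0.22 from 6 to 12 h (12 genes) and 0.44 from 12 to 18 h, and 5 genes passed from 18 to 24 h. With log2(FPKM + 0.1) they were -0.040 at 1 h, -0.60 at 12 h, -0.34 in DMSO, -0.24 from 6 to 12 h (12 genes) and 0.48 from 12 to 18 h, and 5 genes passed from 18 to 24 h. Upper-quartile scaling shifted the median of all genes at 12 h to 0.10 and gave medians of -0.60 at 12 h, -0.38 in DMSO and -0.23 from 6 to 12 h (17 genes). A fit of all 30 libraries called 15 genes at 18 h, 15 from 6 to 12 h and 13 from 18 to 24 h, and 27.5%, 12.4% and 16.4% of all genes. The cause was not tested. Replicate numbers did not pair the samples, since correlations of same-numbered libraries ranged from -0.21 to 0.14 and at no time exceeded 0.1 in all 3 pairs. With a replicate block, 1 gene passed from 18 to 24 h, 2 at 24 h and 23 from 6 to 12 h. Leaving out one library gave 0 to 0 genes at 1 h, 34 to 36 at 6 h (medians -0.46 to -0.42), 41 at 12 h, 0 to 5 at 18 h (-0.13 to -0.043), 1 to 6 at 24 h (0.093 to 0.14), 39 to 40 in DMSO, 16 to 24 from 6 to 12 h (-0.29 to -0.23), 24 to 37 from 12 to 18 h (0.54 to 0.63) and 1 to 7 from 18 to 24 h (0.15 to 0.21). The larger spread at 18 h limits what these libraries can show at that time.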

Other observations

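Ribosome biogenesis genes on the X chromosome are not in the count table and were read from the FPKM values without a test. Dkc1 (dyskerin), the pseudouridine synthase of box H/ACA snoRNPs, had 45.8, 41.2 and 41.9 FPKM in DMSO and 27.6, 28.3 and 31.4 FPKM in C59 libraries at 6 h. At 12 h it had 38.7, 39.01 and 41.6 FPKM in DMSO and 21.6, 21.6 and 25.2 FPKM in C59 libraries. The groups did not overlap at either time, but at 6 h the sex of the embryos and the treatment cannot be told apart for these X-linked genes. At 18 h Dkc1 had 39.6, 36.7 and 38.3 FPKM in DMSO and 34.3, 30.7 and 25.4 FPKM in C59 libraries, and at 24 h 33.6, 34.2 and 34.7 FPKM and 34.7, 43.4 and 36.8 FPKM. Las1l, which takes part in cutting the spacer RNA of the large subunit precursor, had 21.7, 21.7 and 24.0 FPKM in DMSO and 17.7, 17.9 and 18.8 FPKM in C59 libraries at 12 h. Utp14a, an SSU processome protein, had 15.3, 14.7 and 17.0 FPKM in DMSO and 13.2, 13.7 and 15.8 FPKM in C59 libraries at 12 h, and these overlap. Gnl3l, a relative of Gnl3, had 14.4, 13.4 and 14.4 FPKM in DMSO and 14.2, 16.3 and 17.2 FPKM in C59 libraries at 12 h, so that its C59 libraries were not below the controls. At 6 h the C59 libraries of Las1l overlapped with the controls, those of Utp14a were below them and those of Gnl3l above them.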
